A study of Mus musculus with 24 samples.

Results

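Autophagy packs cytoplasm into a double membrane and delivers it to the lysosome, and part of its machinery also marks phagosomes in LC3-associated phagocytosis (LAP). The transcripts of 35 genes of this machinery were followed in the retinal pigment epithelium (RPE), the pigmented layer that engulfs the outer segment tips shed by photoreceptors. The genes were chosen by name, with earlier results of these data known, and all 35 were found among the 54232 gene identifiers of the count table. They comprise 5 genes of the initiation kinase complex, 7 of the class III phosphatidylinositol 3-kinase complexes, 6 of membrane supply, 8 of conjugation, 5 of the Atg8 family and 4 cargo receptors. All 35 passed the filter on low counts, which kept 20275 genes, and the smallest count of any of them in any library was 100.

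Mice labelled Per1-/-Per2Brdm1, called KO here, were compared with wild type (WT) mice. Both were male, 6 weeks old and of the strain C57BL/6/J x 129 SvEvBrd. Eyes were taken at 4 circadian times, CT19, CT22, CT1 and CT10, chosen around the daily maximum of outer segment phagocytosis, and the RPE was cut out by laser capture from frozen tissue. There were 3 libraries in each of the 8 groups, 12 KO and 12 WT in all, of which 4 KO libraries and 1 WT library pooled 2 eyes. The alleles were carried by the whole animal, so the RPE and its neighbours shared them. No label says that every library is a separate animal, so the p-values rest on variation among libraries.

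In autophagy, the Ulk1 kinase complex starts the process, the lipid kinase Pik3c3 marks the growing membrane with phosphatidylinositol 3-phosphate, and conjugation enzymes attach Atg8 proteins such as LC3 and Gabarap to it. Cargo receptors hold the material to be degraded and bind the Atg8 proteins. LAP bypasses the Ulk1 complex: Rubcn and a NADPH oxidase act on a single-membrane phagosome, and the same conjugation enzymes then coat it with LC3. The RPE is known to use LAP to process ingested outer segments, a task that follows the daily clock.

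Library totals lay between 16245067 and 32066263 counts, with 19030 to 24072 genes detected. Counts of the altered genes were higher in KO at CT1: Per1 averaged 165 ± 76.3 CPM (counts scaled to the library total) in KO and 40.3 ± 5.13 CPM in WT libraries (SD, n = 3 each). Per2 averaged 129 ± 22 CPM in KO and 15.5 ± 5.90 CPM in WT libraries at CT1, and 96.7 ± 5.47 CPM in KO and 137 ± 38.6 CPM in WT libraries at CT10 (SD, n = 3 each). Gene-level counts do not show which exons an allele lacks, so they do not check the genotype. The 12 RPE markers took 3.46% to 6.73% of all counts. The 16 rod photoreceptor markers took 1.75% to 10.03%, and none of them was at 0 in any library. In bulk RNA, fewer cells of a type and less RNA per cell cannot be told apart.

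The calls among these genes came from the interaction of genotype and circadian time, which called more of all tested genes than any other test. Gabarapl1, an Atg8 family protein that helps autophagosomes mature, Atg101, a scaffold of the Ulk1 complex, and Bnip3, a receptor for mitophagy on the mitochondrial outer membrane, changed over circadian time in a way that differed between KO and WT. They were the 3 of 35 genes (8.57%) called by the genotype-by-time interaction at a Benjamini-Hochberg adjusted p under 0.05 in edgeR's quasi-likelihood test, where 4.62% of all tested genes were called. At an unadjusted p under 0.05 the interaction held 15 of the 35 genes (42.9%), against 22.3% of all tested genes. No other test called any of the 35. By mean CPM, 34 of the 35 lay above the median tested gene. The shares over all tested genes, here and below, are not matched for level or exon length.

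The promoters of these 3 genes are shown because their transcripts carry the interaction. They were taken from RefSeq on build GRCm38.p6, from 250 bases before to 50 bases after the start site, and are written 5′ to 3′ on the gene's own strand. Capitals mark a CACGTG or ACGTG match on either strand, and the lower-case run holds no such match. Gabarapl1 (ENSMUSG00000030161) lies at chr6:129533160-129542346 on the plus strand, Atg101 (ENSMUSG00000037204) at chr15:101284272-101290945 on the plus strand and Bnip3 (ENSMUSG00000078566) at chr7:138890836-138909519 on the minus strand. The printed windows are chr6:129532942-129533241 for Gabarapl1, chr15:101284051-101284350 for Atg101 and chr7:138909457-138909756 for Bnip3.
Gabarapl1: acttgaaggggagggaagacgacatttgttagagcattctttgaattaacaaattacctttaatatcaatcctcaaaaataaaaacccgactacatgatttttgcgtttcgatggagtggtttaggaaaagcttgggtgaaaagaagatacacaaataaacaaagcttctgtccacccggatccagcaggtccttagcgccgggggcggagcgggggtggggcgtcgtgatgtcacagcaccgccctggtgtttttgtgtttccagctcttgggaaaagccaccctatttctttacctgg
Atg101: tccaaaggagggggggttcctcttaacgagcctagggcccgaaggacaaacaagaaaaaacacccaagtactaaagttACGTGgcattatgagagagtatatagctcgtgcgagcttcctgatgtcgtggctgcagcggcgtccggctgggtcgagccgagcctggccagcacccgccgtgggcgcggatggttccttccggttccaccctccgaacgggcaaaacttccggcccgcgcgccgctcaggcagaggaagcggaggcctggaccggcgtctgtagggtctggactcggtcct
Bnip3: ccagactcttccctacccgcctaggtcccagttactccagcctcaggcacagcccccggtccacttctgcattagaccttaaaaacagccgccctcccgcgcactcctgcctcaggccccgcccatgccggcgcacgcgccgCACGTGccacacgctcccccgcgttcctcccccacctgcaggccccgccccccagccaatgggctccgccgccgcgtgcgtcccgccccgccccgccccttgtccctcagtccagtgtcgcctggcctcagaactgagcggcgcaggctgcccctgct
The Bnip3 window holds the E-box CACGTG, the element bound by the clock factors Clock and Arntl and by related proteins, with its first base 108 bases before the start site (position -108). The Atg101 window holds ACGTG, the core of the hypoxia element, at position -172. The Gabarapl1 window holds neither, which says only that these letters are absent from it.

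Gabarapl1 had 236, 309 and 243 CPM in KO libraries, against 403, 258 and 282 CPM in WT libraries, at CT19. At CT22 it had 242, 431 and 234 CPM in KO libraries, against 205, 293 and 212 CPM in WT libraries. The genotypes overlapped at both of these times, and 1 KO library at CT22 stood above the rest. At CT1 it had 188, 182 and 177 CPM in KO libraries, against 373, 351 and 314 CPM in WT libraries. At CT10 it had 247, 222 and 321 CPM in KO libraries, against 160, 181 and 185 CPM in WT libraries. Every KO library was thus below every WT library at CT1 and above every WT library at CT10. The log2 fold change of KO over WT was -0.92 ± 0.22 (SE) at CT1 and 0.59 ± 0.22 at CT10. Over the 4 times the log2 fold change spanned 1.51 (interaction adjusted p = 0.028, edgeR quasi-likelihood with Benjamini-Hochberg adjustment).

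Bnip3 showed the widest span of the 35, 1.86 on the log2 scale (interaction adjusted p = 0.031, edgeR quasi-likelihood with Benjamini-Hochberg adjustment). At CT1 it had 9.48, 16.3 and 12.8 CPM in KO libraries, against 24.97, 25.5 and 21.0 CPM in WT libraries. At CT10 it had 24.1, 20.8 and 27.7 CPM in KO libraries, against 12.1, 12.4 and 12.4 CPM in WT libraries. Again the groups did not overlap and their order turned round between the times, with log2 fold changes of -0.89 ± 0.28 and 0.97 ± 0.28. At CT19 it had 17.0, 25.7 and 20.4 CPM in KO libraries, against 24.7, 16.9 and 21.3 CPM in WT libraries. At CT22 it had 14.0, 30.3 and 13.3 CPM in KO libraries, against 11.3, 18.1 and 10.2 CPM in WT libraries, and the groups overlapped at both of these times.

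Atg101 differed in a different order. At CT19 it had 10.7, 13.6 and 12.9 CPM in KO libraries, against 19.2, 17.8 and 15.4 CPM in WT libraries, and at CT1 10.1, 13.4 and 9.32 CPM in KO, against 16.3, 13.5 and 14.8 CPM in WT libraries. At CT22 it had 13.4, 19.99 and 17.3 CPM in KO libraries, against 11.04, 8.76 and 10.7 CPM in WT libraries, and at CT10 14.6, 11.4 and 14.8 CPM in KO, against 9.39, 10.6 and 7.90 CPM in WT libraries. The KO libraries were all below the WT libraries at CT19 and CT1 and all above them at CT22 and CT10, so the groups were separate at every time. Its log2 fold changes were -0.49 ± 0.21, 0.74 ± 0.22, -0.44 ± 0.21 and 0.55 ± 0.22 from CT19 to CT10, a span of 1.23 (interaction adjusted p = 0.028, edgeR quasi-likelihood with Benjamini-Hochberg adjustment).

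**Figure D1:**
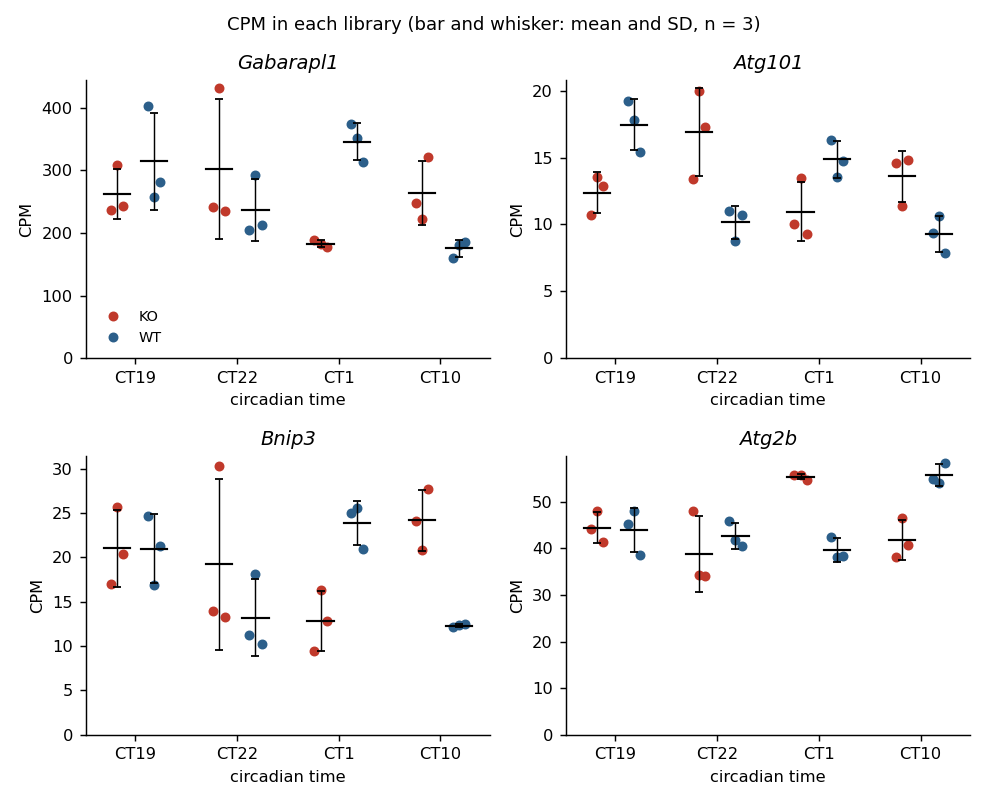
CPM of Gabarapl1, Atg101, Bnip3 and Atg2b in each library at the 4 circadian times, KO in red left of WT in blue, with the mean and SD of 3 libraries. Gabarapl1 and Bnip3 are lower in KO at CT1 and higher in KO at CT10, while Atg2b, a lipid transfer protein, lies the other way round at both times.

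Rod transcripts differed in the same direction as Gabarapl1 and Bnip3 at CT22, CT1 and CT10. At CT22 the median log2 fold change of the rod markers was 1.11, beside 0.35 for Gabarapl1 and 0.54 for Bnip3. At CT19 the rod median was 0.44, against -0.26 for Gabarapl1 and 0.01 for Bnip3. The summed CPM of the 16 rod markers ranged from 25811 to 31489 in KO and from 60597 to 85694 in WT libraries at CT1, and from 32604 to 53653 in KO and from 26666 to 43140 in WT libraries at CT10. Across the 24 libraries, which share their depth and dissection with both measures, the correlation of a gene's log2 level with the mean rod marker level was 0.81 for Gabarapl1, 0.80 for Bnip3 and 0.49 for Atg101. Around the group means it was 0.93, 0.78 and 0.15 for the same genes in that order. With the rod level as a covariate the interaction called 0 of the 35 genes, and Gabarapl1 spanned 0.88 (adjusted p = 0.10), Bnip3 1.04 (adjusted p = 0.21) and Atg101 1.18 (adjusted p = 0.19) by the same edgeR test. Calls among all tested genes fell in that fit as well. Leaving out any of KO replicates 1, 4and6 or 5 at CT1, or KO 2 or 4 at CT10, left 0 of the 35 called. So did leaving out WT 2 or 3and6 at CT1, WT 1 or 4 at CT10 or WT 1 at CT22. Over the 24 left-out libraries the interaction called 20 to 1688 of all tested genes, against 937 in the full fit. The spans were then 1.29 to 1.56 for Gabarapl1, 1.05 to 1.37 for Atg101 and 1.64 to 2.01 for Bnip3. Without the pooled libraries, which left fewer libraries in every KO group and in WT at CT1, only Atg101 was called (adjusted p = 0.041 by the edgeR test).

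At CT10, KO libraries held more of most of these transcripts. No gene was called at an adjusted p under 0.05 (edgeR quasi-likelihood, Benjamini-Hochberg), where 0.0345% of all tested genes were called. In 16 of the 35 genes (45.7%) every KO library exceeded every WT library, which held for 17.7% of all tested genes, and the opposite order held for Ambra1 and Atg2b (5.71%), against 12.4% of all tested genes. The median log2 fold change of the 35 was 0.25, against 0.09 over all tested genes. At an unadjusted p under 0.05, 15 of the 35 differed (42.9%, against 17.9% of all tested genes), of which 13 were higher in KO (37.1%, against 10.7%) and 2 lower (5.71%, against 7.12%).

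Atg5, the gene of smallest unadjusted p among the 35 at this time, encodes the partner to which Atg12 is joined. It had 30.6, 21.4 and 25.03 CPM in KO libraries, against 14.9, 17.4 and 12.4 CPM in WT libraries. The groups were separate, and the log2 fold change was 0.79 ± 0.22 (unadjusted p = 0.0012, adjusted p = 0.11, edgeR quasi-likelihood). Of the 8 conjugation genes, Atg3, Atg5, Atg10 and Atg12, enzymes and partners in the attachment of Atg12 and Atg8 proteins, were higher in KO at an unadjusted p under 0.05, with log2 fold changes of 0.47 ± 0.15, 0.79 ± 0.22, 0.65 ± 0.27 and 0.45 ± 0.20. At the other times the groups of Atg5 overlapped: it had 23.0, 18.9 and 21.4 CPM in KO libraries, against 22.1, 24.5 and 28.2 CPM in WT libraries, at CT19, and 17.4, 19.6 and 15.1 CPM in KO, against 21.4, 16.7 and 23.6 CPM in WT libraries, at CT1. At CT22 Atg5 had 13.9, 24.8 and 24.3 CPM in KO libraries, against 21.6, 25.2 and 22.4 CPM in WT libraries. The processing protease genes Atg4b and Atg4d were at 0.11 and -0.20, the E1-like enzyme gene Atg7 at 0.04 and Atg16l1, which places the conjugate on the membrane, at -0.08 on the same scale.

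The log2 fold changes of the 5 Atg8 genes at CT10 ranged from 0.26 to 0.59 with a median of 0.53, against a median of 0.09 over all tested genes. At an unadjusted p under 0.05, 4 of the 5 were higher in KO, as were 10.7% of all tested genes. Map1lc3b, the LC3 form used as the standard autophagosome marker, had 96.7, 87.0 and 107 CPM in KO libraries, against 74.3, 69.9 and 59.4 CPM in WT libraries. Gabarap, whose protein binds the Ulk1 complex, had 290, 225 and 263 CPM in KO libraries, against 167, 197 and 168 CPM in WT libraries. In both genes the groups were separate, with log2 fold changes of 0.51 ± 0.18 and 0.55 ± 0.18. Map1lc3a stood at 0.53 ± 0.21 and Gabarapl2, whose groups overlapped, at 0.26.

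At CT1 the order was turned round for most of the genes. None was called (0.533% of all tested genes were), and the smallest adjusted p was 0.053 for Gabarapl1 (edgeR quasi-likelihood, Benjamini-Hochberg). In 10 of the 35 genes (28.6%) every KO library was below every WT library, against 14.6% of all tested genes, and in Atg9a, Atg2a and Atg2b every KO library was above, against 10.1%. The median log2 fold change of the 35 was -0.19, against -0.01 over all tested genes. At an unadjusted p under 0.05, 10 of the 35 differed (28.6%, against 19.5% of all tested genes), of which 8 were lower in KO (22.9%, against 11.9%) and 2 higher (5.71%, against 7.63%). Beside Gabarapl1 and Bnip3, the Atg8 gene Gabarapl2 had 27.7, 22.6 and 23.6 CPM in KO libraries, against 43.7, 44.7 and 32.4 CPM in WT libraries, a log2 fold change of -0.71 ± 0.25. The ubiquitin-binding receptor Optn had 145, 115.1 and 143 CPM in KO libraries, against 220, 202 and 165 CPM in WT libraries, a log2 fold change of -0.54 ± 0.21. Both were separate between the genotypes, and their correlations with the rod level across the 24 libraries were 0.81 and 0.85.

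Nbr1, a receptor for ubiquitinated cargo, had 209, 216 and 178 CPM in KO libraries, against 268, 266 and 246 CPM in WT libraries, with separate groups and a log2 fold change of -0.37 ± 0.16. Ulk2, the kinase related to Ulk1, had 36.6, 38.9 and 31.9 CPM in KO libraries, against 49.4, 58.2 and 42.1 CPM in WT libraries, also separate, with -0.48 ± 0.21 on that scale. Atg4d, which removes Atg8 proteins from lipid, had 14.9, 17.0 and 24.9 CPM in KO libraries, against 32.8, 28.2 and 23.6 CPM in WT libraries. Its groups overlapped through 1 KO library, and its log2 fold change was -0.57 ± 0.24. In Gabarap, with 188, 203 and 151 CPM in KO libraries, against 221, 218 and 220 CPM in WT libraries, the groups were separate and the log2 fold change was -0.28. At CT22 Gabarap had 174, 246 and 294 CPM in KO libraries, against 211.5, 227 and 209 CPM in WT libraries, with overlap.

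The lipid transfer genes lay in the opposite order. Atg2a and Atg2b encode the bridges that carry lipid into the growing membrane, and Atg9a the scramblase that works with them. Atg2b had 55.8, 55.8 and 54.8 CPM in KO libraries, against 42.5, 38.1 and 38.3 CPM in WT libraries, at CT1. At CT10 it had 38.3, 46.6 and 40.7 CPM in KO libraries, against 54.9, 54.0 and 58.4 CPM in WT libraries. The groups were separate at both times, in opposite order, and the log2 fold changes were 0.48 ± 0.15 and -0.41 ± 0.15. Its interaction had an adjusted p of 0.050, which did not pass the threshold (edgeR quasi-likelihood, Benjamini-Hochberg). Atg2a had 50.3, 47.1 and 51.2 CPM in KO libraries, against 33.1, 34.8 and 43.6 CPM in WT libraries, at CT1, and 33.3, 34.9 and 31.1 CPM in KO, against 47.8, 33.7 and 48.2 CPM in WT libraries, at CT10. The groups of Atg2a were separate at CT1 and overlapped at CT10, with log2 fold changes of 0.41 ± 0.17 and -0.39 ± 0.17. Atg9a had 14.98, 16.7 and 15.1 CPM in KO libraries, against 12.2, 12.2 and 11.6 CPM in WT libraries, at CT1, and its log2 fold changes were 0.37 at CT1 and -0.37 at CT10. At CT19 Atg2b had 44.1, 48.0 and 41.3 CPM in KO libraries, against 45.2, 48.0 and 38.7 CPM in WT libraries, and at CT22 48.1, 34.3 and 34.0 CPM in KO, against 45.9, 41.7 and 40.6 CPM in WT libraries, with overlap at both. Atg2a had 36.15, 40.1 and 39.3 CPM in KO libraries, against 38.0, 48.0 and 33.6 CPM in WT libraries, at CT19, and 44.0, 32.6 and 32.7 CPM in KO, against 41.4, 40.7 and 39.0 CPM in WT libraries, at CT22, likewise with overlap.

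At CT22, none of the 35 genes was called (0.227% of all tested genes were), and their median log2 fold change was 0.21, against 0.03 over all tested genes. In 4 of them, Atg101, Atg14, Ambra1 and Nbr1 (11.4%, against 8.01% of all tested genes), every KO library was above every WT library, and in none was every KO library below, which held for 4.79% of all tested genes. Ulk1, the kinase that starts autophagy, had 57.9, 50.2 and 49.6 CPM in KO libraries, against 73.1, 56.3 and 68.8 CPM in WT libraries. These groups overlapped, with a log2 fold change of -0.33 ± 0.14 (unadjusted p = 0.026, adjusted p = 0.31, edgeR quasi-likelihood). At an unadjusted p under 0.05 were Ulk1, Atg101, Atg14 and Optn (11.4%, against 12.7% of all tested genes). The rod markers had a median log2 fold change of 1.11 at this time.

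At CT19, none was called (0.0691% of all tested genes were) and the genotypes were closest, with a median log2 fold change of -0.02 and a range of -0.49 to 0.29. Gabarap had 247, 172 and 208 CPM in KO libraries, against 263, 269 and 267 CPM in WT libraries, a log2 fold change of -0.35. Atg101 was the single gene of the 35 (2.86%) at an unadjusted p under 0.05, against 3.47% of all tested genes. In Gabarap every KO library was below every WT library, as also in Atg101 and Map1lc3a (3 of 35 genes, 8.57%, against 5.31% of all tested genes), while Atg16l1 was separate the other way, against 3.96%. Gabarap lies 0.881 Mb from Per1 on chromosome 11, and Atg16l1 lies 3.62 Mb and Atg4b 2.29 Mb from Per2 on chromosome 1. Ulk2, Vmp1 and Sqstm1 lie within 20 Mb of Per1 and Atg9a within 20 Mb of Per2, so for these genes DNA carried along with the altered alleles and the alleles themselves cannot be told apart.

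Averaged over the 4 times, none of the 35 genes was called (0.375% of all tested genes were), and the log2 fold changes lay between -0.11 and 0.21. Map1lc3b was the single gene of the 35 (2.86%) at an unadjusted p under 0.05, which 7.07% of all tested genes reached, with a log2 fold change of 0.19 ± 0.09 (unadjusted p = 0.043, adjusted p = 0.68, edgeR quasi-likelihood). Its libraries had 99.3, 102 and 91.7 CPM in KO, against 98.1, 85.8 and 77.2 CPM in WT, at CT19, and 82.9, 135 and 99.1 CPM in KO, against 80.8, 98.8 and 68.3 CPM in WT, at CT22. At CT1 it had 96.6, 72.4 and 67.5 CPM in KO libraries, against 97.5, 92.6 and 96.3 CPM in WT libraries. The groups of Map1lc3b overlapped at these 3 times. Uvrag, which directs the lipid kinase to late endosomes, had 42.6, 45.2 and 44.9 CPM in KO libraries, against 34.5, 33.3 and 31.4 CPM in WT libraries, at CT10, and 32.4, 38.0 and 33.8 CPM in KO, against 52.3, 39.8 and 40.0 CPM in WT libraries, at CT1. Its groups were separate in opposite order at these times, and over all times it ranged from 32.4 to 62.4 CPM in KO and from 27.8 to 52.6 CPM in WT libraries. Uvrag had 49.7, 60.6 and 42.1 CPM in KO libraries, against 52.6, 36.0 and 43.7 CPM in WT libraries, at CT19, and 42.1, 62.4 and 48.0 CPM in KO, against 36.6, 52.3 and 27.8 CPM in WT libraries, at CT22, with overlap at both. Atg10, the E2-like enzyme of the Atg12 reaction, had 12.6, 9.80 and 11.1 CPM in KO libraries, against 6.45, 8.66 and 6.26 CPM in WT libraries, at CT10, again with separate groups. Its groups overlapped at CT19, with 7.90, 9.04 and 8.04 CPM in KO libraries, against 7.24, 9.07 and 9.37 CPM in WT libraries. They overlapped as well at CT22, with 5.77, 9.86 and 11.55 CPM in KO, against 8.33, 5.32 and 6.64 CPM in WT libraries, and at CT1, with 7.51, 6.52 and 5.83 CPM in KO, against 6.56, 7.30 and 8.94 CPM in WT libraries. Averaged over the times, the log2 fold changes of Uvrag and Atg10 were 0.17 and 0.21.

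Within WT, time called none of the 35 genes (0.947% of all tested genes were called), and within KO none of the 35 and none of all 20275 tested genes (0%). At an unadjusted p under 0.05 there were 9 of the 35 in KO (25.7%, against 11.7% of all tested genes) and 10 in WT (28.6%, against 19.3%). Gabarapl1 averaged 263 ± 39.9, 302 ± 111.2, 183 ± 5.51 and 264 ± 51.6 CPM from CT19 to CT10 in KO libraries, and 314 ± 77.8, 237 ± 48.8, 346 ± 30.2 and 175 ± 13.9 CPM in WT libraries (SD, n = 3 each). Its lowest mean was thus at CT1 in KO and at CT10 in WT, and its time range was 0.73 and 0.98 on the log2 scale (adjusted p = 0.36 and 0.062, edgeR quasi-likelihood with Benjamini-Hochberg adjustment). Atg101 ranged over 0.63 in KO and 0.91 in WT and Bnip3 over 0.91 in KO and 0.95 in WT on the log2 scale. In Atg2b and Atg2a the highest KO mean was at CT1, with time ranges of 0.51 and 0.58 in KO. The mean of both genotypes gave 0 of 35 genes at an unadjusted p under 0.05, against 7.72% of all tested genes, and no adjusted call (0.0247% of all tested genes).

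The mean level of the 35 genes, as mean log2(CPM + 1) per library, was 5.82 ± 0.07, 5.80 ± 0.14, 5.62 ± 0.09 and 5.81 ± 0.09 in KO libraries from CT19 to CT10, and 5.85 ± 0.05, 5.64 ± 0.08, 5.79 ± 0.06 and 5.59 ± 0.07 in WT libraries (SD, n = 3 each). The differences of KO minus WT were -0.03, 0.15, -0.17 and 0.22. The CT10 difference was 0.13 with relative log expression (RLE) scaling of the libraries in edgeR. KO was lowest at CT1 and WT at CT10. The Atg8 family differed by -0.48 at CT1 and 0.48 at CT10 and the cargo receptors by -0.42 and 0.43, while the membrane supply genes differed by 0.22 and -0.04. The class III kinase complexes differed by at most 0.23, at CT22. The rod markers, measured the same way, differed by 0.48, 1.08, -1.26 and 0.36 from CT19 to CT10.

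**Figure D2:**
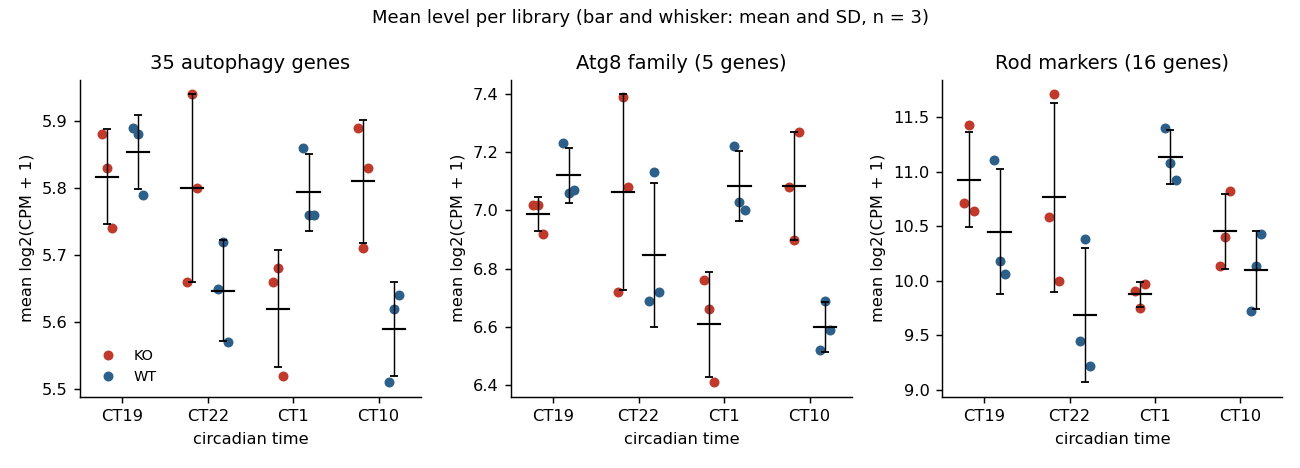
Mean log2(CPM + 1) per library over the 35 autophagy genes, the 5 Atg8 family genes and the 16 rod markers, KO in red left of WT in blue, with mean and SD of 3 libraries. All 3 panels are lower in KO at CT1, and the gap at CT10 is wider for the Atg8 family than at CT19.

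The rod level did not track all of the genes alike. Its correlation with the log2 level across the 24 libraries had a median of 0.30 over the 35 genes, of which 27 were positive, and of -0.02 over all tested genes. It ranged from 0.85 for Optn to -0.50 for Wipi1, a reader of phosphatidylinositol 3-phosphate. The 13 genes higher in KO at CT10 at an unadjusted p under 0.05 spread widely. Gabarapl1 had 0.81, Bnip3 0.80, Uvrag 0.76, Map1lc3b 0.67 and Atg101 0.49. Atg3 had 0.29, Atg12 0.21, Atg10 and Gabarap 0.14, Atg5 and Map1lc3a 0.08, Vmp1 -0.05 and Sqstm1 -0.28. Other markers also differed at these times: the median log2 fold change of 7 inner retina markers was -0.82 at CT1 and 0.75 at CT10, of 9 immune markers 0.73 and 0.64, and of the 12 RPE markers 0.17 and 0.37. The part of these markers in the autophagy results was not tested.

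Exon length, the bases covered by any annotated exon of a gene, went along with the turn between CT1 and CT10. The log2 fold change at CT10 minus that at CT1 was positive in 26 of the 35 genes, with a median of 0.47, against 0.13 over all tested genes and 0.20 over genes of at least 5 CPM. It reached 1.86 in Bnip3 (2265 bases of exon) and 1.51 in Gabarapl1 (2013 bases), and was lowest in Atg2b, at -0.90 with 13456 bases. The longest of the 35, Rb1cc1 (14690 bases), stood at 0.44 and the shortest, Map1lc3a (1181 bases), at 0.74. Across the 35 genes it correlated with log2 exon length at -0.62. The same correlation was -0.20 across 11558 genes of at least 5 CPM and 0.01 across 20254 tested genes, which share these libraries and are not independent. In the genes of at least 5 CPM, the median CT10 minus CT1 value fell from 0.56 in the shortest decile of exon length to -0.10 in the longest. The part of transcript length in the result was not tested.

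**Figure D3:**
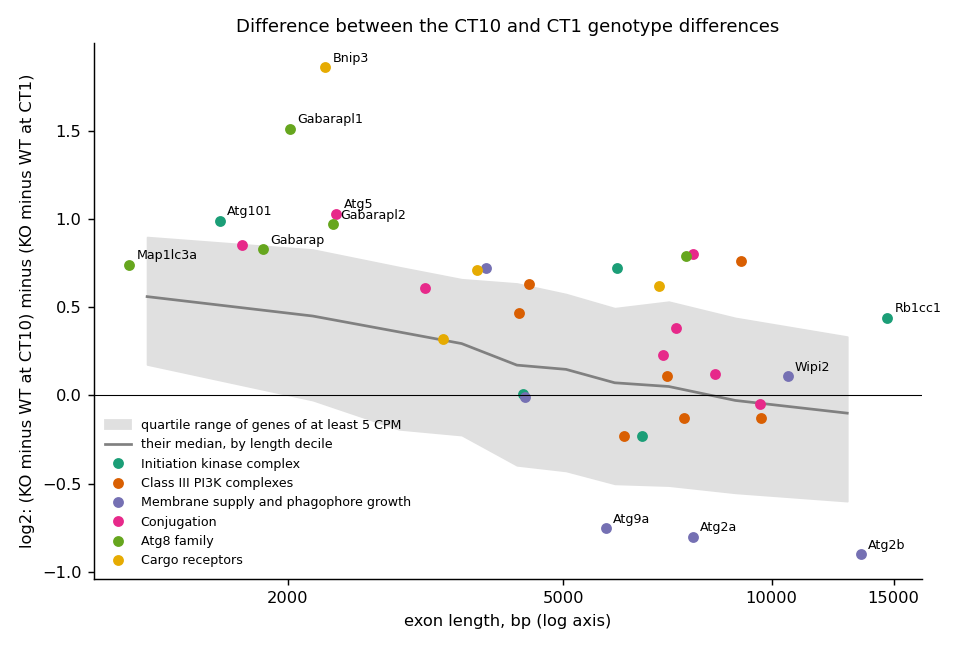
Log2 fold change of KO over WT at CT10 minus that at CT1 (vertical) against exon length in bases (log axis) for the 35 genes coloured by role, with the median and quartile range of genes of at least 5 CPM in grey. Bnip3 and Gabarapl1, short genes, lie highest and the long Atg2b lies lowest, while the longest gene, Rb1cc1, lies at 0.44.

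Per kilobase of exon, 3 Atg8 genes had the highest levels. Map1lc3a had 132.2 ± 25.3 CPM per kb in KO and 132.7 ± 24.3 in WT libraries, Gabarapl1 125.6 ± 35.5 in KO and 133.2 ± 40.3 in WT and Gabarap 120.3 ± 25.4 in KO and 119.2 ± 18.5 in WT (SD, n = 12 each). The aggregate receptor Sqstm1 followed with 84.8 ± 15.8 CPM per kb in KO and 81.5 ± 14.7 in WT libraries. Map1lc3b, at 12.6 ± 2.32 in KO and 11.1 ± 1.80 in WT, was below Map1lc3a on this scale, which depends on the annotation. Exon length counts every base in any annotated exon, 7517 for Map1lc3b and 1181 for Map1lc3a, and is not the length of 1 transcript. Before this division Map1lc3b averaged 94.8 CPM in KO and 83.25 CPM in WT libraries, and Map1lc3a 156.1 CPM in KO and 156.8 CPM in WT libraries. The lowest were Rb1cc1, the large scaffold of the Ulk1 complex, and Atg9a, with means over all libraries of 2.36 and 2.26 CPM per kb. No 2 neighbours in the order of the 35 had separate ranges over the 24 libraries (0 of 34 pairs).

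**Figure D4:**
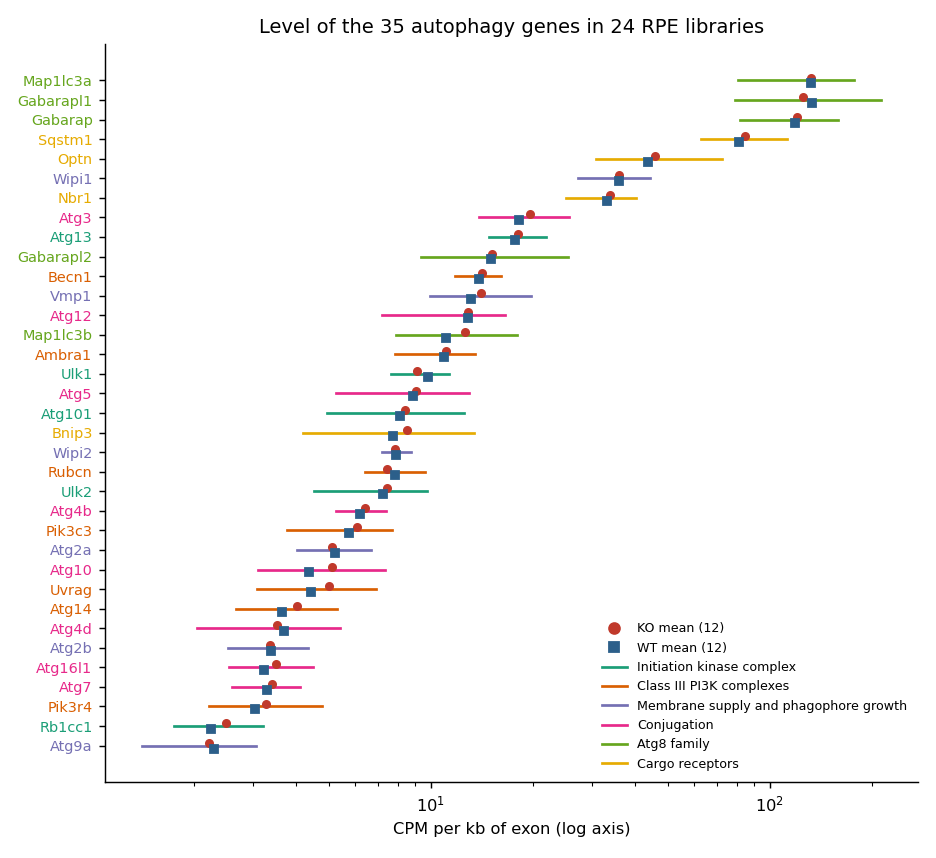
Level of each gene in CPM per kilobase of exon (log axis), with the KO mean as a circle above the WT mean as a square (12 libraries each) and a line from the lowest to the highest library, coloured by role. The Atg8 genes Map1lc3a, Gabarapl1 and Gabarap lead, and the KO and WT means lie close together in every row.

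The steadiest gene was Wipi2, which recruits Atg16l1 to the membrane, with 75.6 to 92.4 CPM over all libraries, the highest 1.22 times the lowest. Becn1, the regulatory subunit of the lipid kinase, followed with 83.1 to 113.8 CPM (1.37 times). Log2 fold changes of the 7 class III kinase genes ranged from -0.34 to 0.06 at CT1 and from -0.20 to 0.42 at CT10. At CT22 they ranged from -0.19 to 0.43, with a median of 0.24, against 0.03 over all tested genes. Uvrag at CT10 and Atg14 at CT22 were the only ones of them at an unadjusted p under 0.05 at these times. Atg14, the subunit that places the kinase at the endoplasmic reticulum, had 19.7, 22.9 and 16.8 CPM in KO libraries, against 14.6, 15.4 and 14.1 CPM in WT libraries, at CT22, with separate groups. Rubcn, the subunit that LAP needs and that holds back autophagy, stood at -0.12, -0.19, 0.06 and -0.07 from CT19 to CT10. Ambra1, which links the kinase complexes, had 67.4, 63.4 and 63.4 CPM in KO libraries, against 74.5, 71.2 and 77.9 CPM in WT libraries, at CT10, the separate order opposite to Uvrag, and 71.5, 68.2 and 70.0 CPM in KO, against 64.0, 65.3 and 48.0 CPM in WT libraries, at CT22. Pik3c3, the catalytic subunit, had 34.3, 25.9 and 27.6 CPM in KO libraries, against 20.3, 24.7 and 24.7 CPM in WT libraries, at CT10, with separate groups. Pik3r4, its regulatory partner, had log2 fold changes between -0.08 and 0.24.

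Within the initiation complex, Atg13 lay between -0.13 and 0.10 on that scale. Rb1cc1 had 40.9, 43.7 and 37.9 CPM in KO libraries, against 28.0, 34.3 and 31.8 CPM in WT libraries, at CT10, with separate groups and a log2 fold change of 0.38. Ulk1 had 52.0, 62.7 and 53.7 CPM in KO libraries, against 62.4, 61.3 and 70.2 CPM in WT libraries, at CT10, with overlap. It had 59.5, 62.5 and 60.2 CPM in KO libraries, against 56.0, 59.6 and 56.6 CPM in WT libraries, at CT19, and 73.3, 66.0 and 63.4 CPM in KO, against 65.9, 73.1 and 59.6 CPM in WT libraries, at CT1. Its groups overlapped at both times, with log2 fold changes of 0.08 and 0.03. Among the conjugation genes, Atg4b, Atg7 and Atg16l1 lay between -0.19 and 0.30 at every time. Wipi1 had log2 fold changes of -0.13, -0.25, 0.22 and 0.20 from CT19 to CT10. Vmp1, an endoplasmic reticulum scramblase, had 75.4, 61.1 and 57.9 CPM in KO libraries, against 40.9, 50.2 and 38.4 CPM in WT libraries, at CT10, with separate groups and a log2 fold change of 0.59 ± 0.21. Sqstm1 had 356, 260 and 292 CPM in KO libraries, against 223, 238 and 211 CPM in WT libraries, at CT10, also with separate groups.

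The NADPH oxidase that LAP requires was low in these libraries except for Rac1 and Cyba. Cybb, its catalytic subunit, ranged from 1.02 to 10.5 CPM and the regulatory subunit Ncf4 from 0 to 3.23 CPM, against 164 to 324 CPM for Rac1, a GTPase with many other roles. None of the 7 oxidase genes was called in any test. Of the other lists of the pathway, 0 of 9 transcriptional regulators, 0 of 11 other core genes, 0 of 8 other cargo receptors and 0 of 13 lysosome fusion genes were called by the interaction, against 4.62% of all tested genes. Of the 15 genes of mTORC1 and AMPK signalling 1 was called, Rheb, the GTPase that activates mTORC1 and thereby restrains autophagy. Rheb had 92.0, 114.7 and 117.3 CPM in KO libraries, against 50.8, 67.7 and 70.2 CPM in WT libraries, at CT10, and its log2 fold change spanned 1.08 over the times (interaction adjusted p = 0.037, edgeR quasi-likelihood with Benjamini-Hochberg adjustment). At CT10 and an unadjusted p under 0.05, where 10.7% of all tested genes were higher and 7.12% lower in KO, 5 of the 8 other cargo receptors were higher, among them the mitophagy receptor Fundc1 with a log2 fold change of 0.63 ± 0.22, and 0 were lower. The transcriptional regulators had 1 higher and 1 lower, the fusion genes 1 and 1, the mTORC1 and AMPK genes 2 higher and 1 lower, and the other core genes 0 higher and 1 lower.

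Promoter windows were matched for 29 of the 35 genes, leaving Map1lc3a, Atg16l1, Rb1cc1, Atg12, Becn1 and Pik3c3. The E-box CACGTG was present in 6 of the 29 (20.7%), namely Atg14, Rubcn, Atg3, Atg5, Atg7 and Bnip3. It was present in 8.09% of all genes with a promoter window and in 10.8% of tested genes with one. Its extended form GTCACGTG, the core of the CLEAR element bound by Tfeb, was present in Atg14, Atg3 and Atg7 (10.3%). The shares were 2.55% of all genes with a window and 4.26% of tested genes with one. Both strands were searched, and every GTCACGTG match is also a CACGTG match. A gene with several windows was counted if any of them held a match, as in Rubcn, where not every window held CACGTG. The shorter core ACGTG, which lies within CACGTG, was found in 14 of 29 (48.3%, against 21.8% and 27.4%). The D-box TTATGNAA was found in Atg14 alone (3.45%, against 3.99% and 2.62%). Atg3, the E2-like enzyme that transfers Atg8 to lipid, is shown because it holds GTCACGTG more than once, at positions -96 and -73, in capitals in the window chr16:45158729-45158768 on the plus strand (GRCm38.p6).
Atg3: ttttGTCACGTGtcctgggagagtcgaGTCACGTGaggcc
At CT10 Atg3 had 65.4, 64.5 and 64.5 CPM in KO libraries, against 45.5, 50.9 and 43.8 CPM in WT libraries, with separate groups. Atg14 and Atg7 had log2 fold changes of 0.25 and 0.04 at that time, without passing an unadjusted p of 0.05. A match describes these letters and is no evidence of binding.

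The counts of 14 of the 35 genes are uncertain because an exon of theirs overlaps another annotated gene. Among those described above these are Gabarapl1, Bnip3, Atg2b, Atg9a, Map1lc3b, Sqstm1, Optn, Uvrag, Vmp1, Becn1, Rubcn, Atg14, Atg4d and Rb1cc1. Atg101, Atg5, Atg3, Gabarap, Gabarapl2 and Atg2a had no such overlap.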

How the data were processed

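The authors deposited raw counts per gene, whole numbers with no normalization, for 24 libraries. The submitters' processing notes list HTSeq 0.11, Trimmomatic 0.32, Cufflinks and HISAT2 2.1.0 beside build GRCm38.p6; the annotation release and the strand setting are not given in the sources used here, so overlapping genes are uncertain. Of the identifiers, 54079 were named through GENCODE vM21 and 153 had no symbol there. From these counts, CPM were computed with TMM library sizes (factors 0.8842 to 1.1331), and genes were kept by filterByExpr with a minimum count of 10. All 8 groups entered 1 quasi-likelihood fit in edgeR 4.0.16 (R 4.3.3) with 16 residual degrees of freedom, and 9 contrasts were tested. Unless another setting is named, p-values come from this fit across all tested genes. They were adjusted by Benjamini-Hochberg over those genes, with a threshold of 0.05. Tests of a single difference are two-sided, and those over the 4 times are F tests without a direction. Tests over the 4 times give the highest minus the lowest log2 value. SE is the log2 fold change divided by the root of F. Mean levels used log2(CPM + 1). The fit was also run on simulated counts in which some genes carried a constant KO change. No interaction was planted there, so that run does not check how well an interaction is recovered. Depth limits the precision of genes near 10 CPM most.

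The members, lists and tests were chosen with earlier results of these data known. Values in every library are given for genes called in any test, for the 3 of smallest p in the tests of the genotype average, time in WT, time in KO and the interaction, and for the 2 of smallest p at each time. Further genes, such as Gabarapl2, Optn, Vmp1, Sqstm1 and Atg3, were chosen after their values were seen. The alternatives were DESeq2 1.42.0, RLE scaling in edgeR, other filters on low counts, a replicate block and rod or choroid marker levels as covariates. Further fits left out the pooled libraries or each library in turn.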

Additional observations from a re-analysis of the deposited data

Results flagged for a closer look

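The difference between the genotypes itself differed between circadian times in 3 of the 35 genes (8.57%, against 4.62% of all tested genes), by the interaction test of edgeR with Benjamini-Hochberg adjustment. The KO minus WT log2 difference spanned 1.86 over the 4 times in Bnip3 (adjusted p = 0.031), 1.51 in Gabarapl1 (adjusted p = 0.028) and 1.23 in Atg101 (adjusted p = 0.028). In Bnip3 and Gabarapl1 all 3 KO libraries were below all 3 WT libraries at CT1 and above them at CT10, and in Atg101 the groups were separate at every time.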

How the results depend on the processing

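The interaction called 3 of the 35 genes; a mean of at least 5 CPM gave 5 and DESeq2 7, while leaving out the pooled libraries gave 1, the choroid score as a covariate 1, the rod score 0 and the replicate block 0. Calls among all tested genes also moved: 937 in the fit reported, 2510 with DESeq2, 3 with the replicate block and 19 with the rod score. Over 30 pairs of libraries with the same replicate number, the correlation of deviations had a median of 0.01 (-0.21 to 0.42), with 7 over 0.1. Deviations from means of 3 libraries cannot decide whether these numbers pair the libraries. The replicate block left 7 residual degrees of freedom, against 16 in the fit reported. Against 0 calls in the fit reported, CT22 gave 1 with DESeq2; CT1 gave 3 without the low-count filter, 1 at a mean of 5 CPM and 2 with DESeq2; CT10 gave 1 without the filter and 2 with DESeq2; time in WT gave 2 without the filter, 3 with DESeq2, 1 with the rod score and 3 with the choroid score. Calls under settings without a count over all tested genes beside them cannot be read as particular to the 35. Leaving out each library in turn gave 0 to 6 calls for the interaction, 0 to 2 at CT1, 0 to 3 for time in WT and 0 for the other tests. Among all tested genes the interaction then called 20 to 1688, CT1 20 to 788 and time in WT 16 to 686. The interaction called 6 without KO replicate 1and4 at CT22 and 0 without KO replicates 1, 4and6 or 5 at CT1, KO 2 or 4 at CT10, WT 2 or 3and6 at CT1, WT 1 or 4 at CT10 or WT 1 at CT22. CT1 called 2 without KO replicate 2 at CT22 and 1 without KO 3 at CT22 or WT 1 at CT19, and time in WT called 3 without KO replicate 2 at CT22. The interaction's adjusted p (edgeR and DESeq2, Benjamini-Hochberg) under the other settings and left-out libraries ran from 0.00024 to 0.32 for Gabarapl1, from 0.0010 to 0.19 for Atg101 and from 0.00013 to 0.31 for Bnip3. The CT10 difference in mean level was 0.22, and 0.13 with RLE scaling in edgeR. Of 640 values of named genes under other settings, 577 kept direction and side of the threshold, 42 lost a call, 21 gained one and 0 turned sign. Only the 3 interaction calls could lose a call, and a range over the 4 times has no sign to turn, so the 577 does not measure how stable those calls were. Over the 24 left-out libraries the interaction called Gabarapl1 and Atg101 14 times each and Bnip3 12 times. The cause of these shifts was not tested.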
